A study of Mus musculus with 4 samples.

Results

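Interferon response genes were followed in liver RNA of 2 Cyp3a-/- mice and 2 wild type mice. The Cyp3a-/- mice lack the Cyp3a cluster of cytochrome P450 genes. The group is a list of 39 genes by name, out of 21153 genes that an accession identified on the array, and the list's rule uses no measured value. Total RNA of each liver was labelled with Cy3 and read on its own 1-colour Agilent mouse expression array. The livers came from different animals. Strain, sex, age, feeding state and the allele used to remove the cluster are not given in the sources used here, nor is any treatment. The comparison asks whether interferon response transcripts differ in liver when the cluster is missing.

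Interferons are cytokines, and those of type I and type III are released when cells sense foreign or misplaced nucleic acid. Type I and type III interferons activate the kinases JAK1 and TYK2, which lead to a complex holding STAT2 and IRF9 that binds a promoter sequence called the interferon-stimulated response element (ISRE). Interferon gamma acts mainly at another promoter sequence, the gamma-activated site (GAS). The genes switched on in this way encode nucleic acid sensors, enzymes that degrade viral RNA, proteins that bind it, GTPases, chemokines and parts of the antigen presentation machinery, and hepatocytes, Kupffer cells and sinusoidal endothelium of the liver can all respond.

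Promoter windows running from 250 bases before to 50 bases after a gene's start were taken from RefSeq (GRCm38.p6) for 31 of the 39 members. The core of the ISRE, taken as GAAA, any 2 bases and GAAA again on either strand, was present in 17 of these 31 members (54.8%), against 3.99% of the 27025 genes with a window. The core of the GAS, TTCNNNGAA, which reads the same on both strands, was present in 8 members (25.8%), against 9.55% of all genes with a window. Overlapping matches were counted, and a match describes letters in a window. The 4 windows below are shown because they belong to an ISRE-rich member with a difference near 0 (Isg15), to an IFIT gene (Ifit1), and to the adjacent pair Rsad2 and Cmpk2, whose signals differed between genotypes in opposite directions. Each is written 5′ to 3′ on the strand of the gene, with matches to the ISRE core in capitals.
Isg15, chr4:156200769-156201068, minus strand: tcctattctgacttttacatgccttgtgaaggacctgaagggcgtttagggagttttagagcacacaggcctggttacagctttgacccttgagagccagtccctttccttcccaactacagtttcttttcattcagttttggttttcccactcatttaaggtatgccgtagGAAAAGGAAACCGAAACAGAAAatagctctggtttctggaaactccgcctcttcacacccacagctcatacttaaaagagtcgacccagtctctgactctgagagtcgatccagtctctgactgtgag
Ifit1, chr19:34640639-34640938, plus strand: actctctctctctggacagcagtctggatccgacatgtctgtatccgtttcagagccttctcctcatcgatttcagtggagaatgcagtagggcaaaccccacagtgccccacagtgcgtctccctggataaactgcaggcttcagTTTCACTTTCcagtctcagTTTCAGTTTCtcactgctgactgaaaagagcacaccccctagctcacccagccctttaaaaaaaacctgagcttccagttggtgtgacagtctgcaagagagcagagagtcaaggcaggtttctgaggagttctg
Rsad2, chr12:26456403-26456702, minus strand: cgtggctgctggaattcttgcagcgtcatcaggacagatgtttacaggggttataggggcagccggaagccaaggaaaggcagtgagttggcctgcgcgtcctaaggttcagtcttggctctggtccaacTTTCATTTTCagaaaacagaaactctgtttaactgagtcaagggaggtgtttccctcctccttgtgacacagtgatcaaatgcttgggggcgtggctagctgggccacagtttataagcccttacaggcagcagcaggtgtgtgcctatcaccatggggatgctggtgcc
Cmpk2, chr12:26468965-26469264, plus strand: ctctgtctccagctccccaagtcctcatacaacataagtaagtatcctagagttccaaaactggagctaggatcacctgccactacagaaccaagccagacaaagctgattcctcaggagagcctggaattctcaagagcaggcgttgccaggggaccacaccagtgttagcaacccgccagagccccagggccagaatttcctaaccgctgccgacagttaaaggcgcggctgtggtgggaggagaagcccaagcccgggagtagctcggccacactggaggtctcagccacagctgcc
The Isg15 window held 3 overlapping matches between 78 and 57 bases before the start. The Ifit1 window held 2, at 104 to 95 and at 85 to 76 bases before the start, the Rsad2 window held 1 at 120 to 111 bases before it, and these letters did not occur in the Cmpk2 window.

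On each array 54.4% to 56.4% of probes stood well above background, and 0 spots were saturated. Cyp3a11, the main Cyp3a transcript of mouse liver, gave log2 signals of 7.94 and 8.09 in the wild type livers and of -6.98 and -6.93 in the Cyp3a-/- livers, where it was not well above background, so the arrays matched their labels. The wild type arrays shared slide 1, while Cyp3a-/- 1 lay on slide 2 and Cyp3a-/- 2 on slide 3, with a common scan day. Slide thus follows genotype, and a difference between slides cannot be told apart from one between genotypes. With slide as a random block 0 of the members below passed the test as well, but that fit cannot separate the 2 either. The summed linear level of 8 hepatocyte markers, relative to each array's 75th percentile, ranged from 2376 to 2843, and all 8 were well above background in every liver. The number of arrays limits the precision of every value, and p-values measure only the spread between these 4 livers.

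Of the 39 members, 36 had at least 1 probe matched by its accession, 47 probes in all. No probe was matched for Ddx60, Mx1 and Mx2, which are not analysed here. Oas3, which encodes an enzyme that makes the second messenger 2-5A from double-stranded RNA, had 1 probe, which did not rise well above background in any liver (log2 signals -5.57, -5.55, -5.36 and -5.66). The remaining 35 members were tested, and every one of them was well above background in all 4 livers. Signals are log2 of the processed intensity after division by the array's 75th percentile, so 0 marks a probe as bright as that percentile, and a log2 difference of 1 is a 2-fold difference. All differences are Cyp3a-/- minus wild type.

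No member passed the test: 0 of 35 had a limma adjusted p under 0.05 (Benjamini-Hochberg over all 17552 features), against 0.273% of all features. At an unadjusted p under 0.05 there were 4 members: Cmpk2 and Oas2 with lower signal in Cyp3a-/- livers, against 5.40% of all features, and Rsad2 and Irf7 with higher signal, against 4.60% of all features. Leaving out 1 liver moved the count over all features from 48 to 8 (without wild type 1), 7 (without wild type 2), 95 (without Cyp3a-/- 1) or 527 (without Cyp3a-/- 2), while the count of members was 0 each time. The median log2 difference over the 35 members was 0.05, beside 0.01 over all features, with 19 members above 0 and 16 below. Sizes were small: the median absolute difference was 0.13, against 0.20 over all features, and the members ran from -0.80 to 0.54. The 95% interval of the difference lay inside 2-fold in both directions for 26 of 35 members (74.3%), against 74.6% of all features. For the other 9 members these arrays do not exclude a difference of 2-fold. In whole liver, fewer cells of a type and less RNA per cell cannot be told apart.

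**Figure D1:**
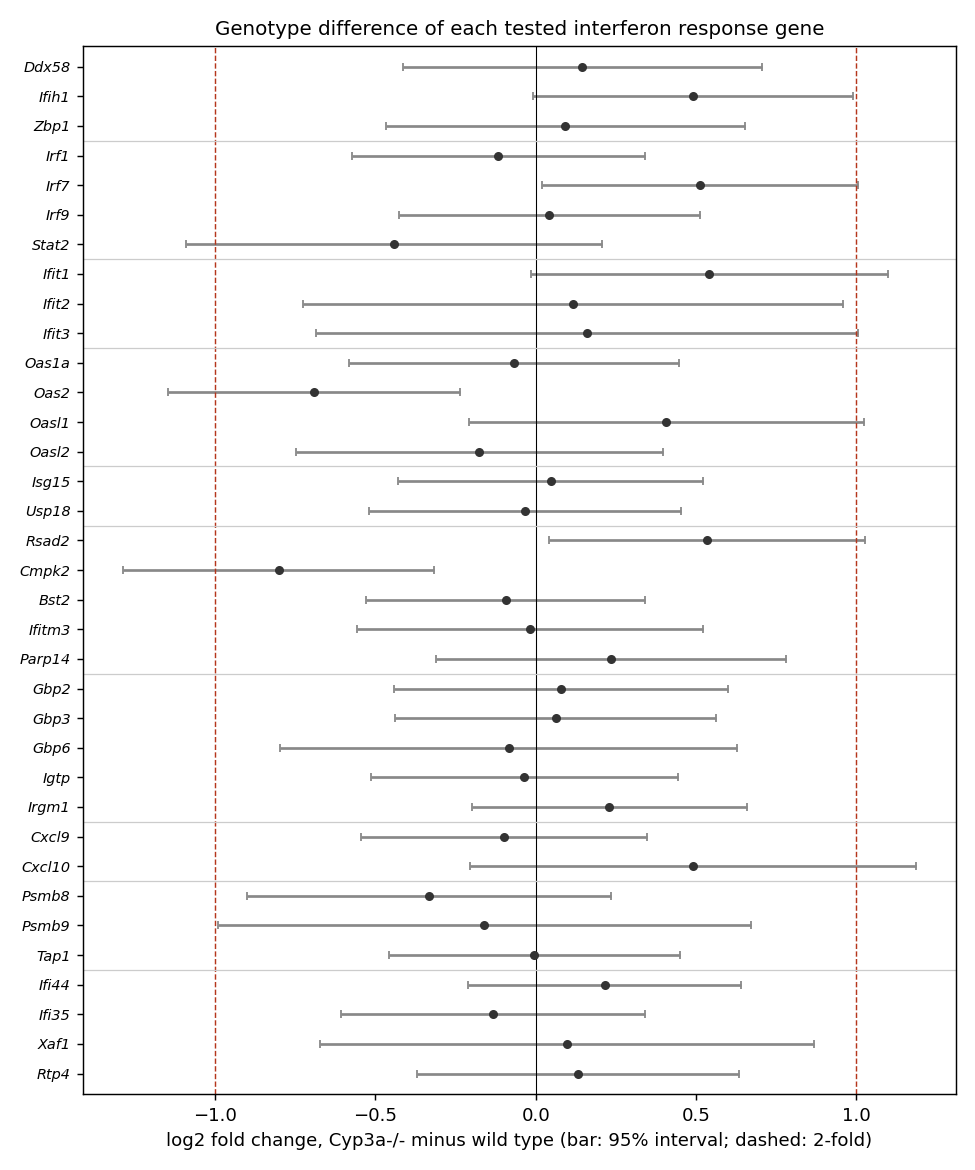
Log2 difference between Cyp3a-/- and wild type livers (horizontal axis) for each of the 35 tested interferon response genes, grouped by role, with 2 livers per genotype. Points are limma estimates, bars their 95% intervals, and dashed lines mark 2-fold; the estimates run from -0.80 (Cmpk2) to 0.54 (Ifit1), and 26 intervals lie between the dashed lines.

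Sensors of foreign nucleic acid came first in the order of roles, with 3 members tested and none past the threshold. Ifih1, which encodes the double-stranded RNA sensor MDA5, gave log2 signals of 1.36 and 1.14 in the wild type livers and of 1.61 and 1.87 in the Cyp3a-/- livers. Both Cyp3a-/- livers were above both wild type livers. The difference was 0.49 ± 0.20 (SE; 95% interval -0.01 to 0.99; adjusted p = 0.509). A second Ifih1 probe was well above background only in Cyp3a-/- 2 and was not tested. Ddx58, which encodes the RNA sensor RIG-I, and Zbp1, a sensor of left-handed nucleic acid, had overlapping genotypes by their brighter probes. Their differences were 0.15 and 0.09.

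Among the transcription factors, 4 members were tested and none passed. Irf7, the factor that amplifies type I interferon production once induced, gave log2 signals of -0.92 and -0.96 in the wild type livers and of -0.27 and -0.60 in the Cyp3a-/- livers. The wild type pair lay close together and below both Cyp3a-/- livers, which differed from each other more. The difference was 0.51 ± 0.20 (SE; 1.43-fold; 95% interval 0.02 to 1.00; adjusted p = 0.489). Stat2, a subunit of the complex that binds the ISRE, measured 2.42 and 2.10 in wild type and 1.53 and 2.10 in Cyp3a-/- livers. Here a single liver, Cyp3a-/- 1, was low, and the difference of -0.44 ± 0.26 (SE; adjusted p = 0.623) came with overlapping groups. Irf9, the DNA-binding subunit of that complex, measured 2.25 and 2.14 against 2.11 and 2.36, with both wild type livers inside the Cyp3a-/- range. Irf1, a factor induced mainly by interferon gamma, measured 2.85 and 2.64 against 2.67 and 2.59, and its genotypes also overlapped. Their differences were 0.04 ± 0.19 and -0.12 ± 0.18 (SE; adjusted p = 0.953 and 0.855).

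The IFIT genes encode proteins that bind foreign RNA and stop its translation, and none of the 3 passed. Ifit1 gave log2 signals of -2.13 and -2.60 in the wild type livers and of -1.87 and -1.78 in the Cyp3a-/- livers, so both Cyp3a-/- livers were higher. Its difference was 0.54 ± 0.22 (SE; 1.46-fold; adjusted p = 0.511), with a 95% interval from -0.01 to just past 2-fold. Ifit2 and Ifit3, neighbours on chromosome 19, had overlapping genotypes and differences of 0.12 and 0.16. Their spread over the 4 livers was 0.97 and 0.93 log2 units, among the widest of the group. The Ifit3 probe may also detect its close copy Ifit3b, since probe sequences were not used here.

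The OAS family makes 2-5A, which activates the RNA-degrading enzyme RNase L, or consists of related proteins without that activity; 4 of 5 members were tested and none passed. Oas2, which makes 2-5A, gave log2 signals of -0.79 and -0.94 in the wild type livers and of -1.64 and -1.48 in the Cyp3a-/- livers. Each pair was tight, and the gap between the pairs was wider than either. The difference was -0.69 ± 0.18 (SE; 1.62-fold lower; 95% interval -1.15 to -0.24), with an adjusted p of 0.323. Oasl1, an OAS-like protein that restrains Irf7 translation, differed the other way, at 2.57 and 2.00 in wild type and 2.61 and 2.78 in Cyp3a-/- livers. Its wild type livers differed by 0.57, more than the genotypes did (0.41 ± 0.25, SE; adjusted p = 0.629). Oasl2, the neighbour of Oasl1 on chromosome 5, and Oas1a had overlapping genotypes, with differences of -0.18 and -0.07. Oas1a and its close copy Oas1g may share a probe's target.

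Isg15, a ubiquitin-like protein joined to other proteins after interferon, and Usp18, the enzyme that removes it and also dampens receptor signalling, had differences near 0. The log2 signals of Isg15 were 2.43 and 2.19 in the wild type livers and 2.28 and 2.43 in the Cyp3a-/- livers, so the genotypes overlapped. Its difference was 0.05 ± 0.19 (SE; 95% interval -0.43 to 0.52; adjusted p = 0.949), and that of Usp18 was -0.03. A second Isg15 probe gave 0.14, at -1.76 and -1.87 in wild type and -1.64 and -1.71 in Cyp3a-/- livers. By that probe both Cyp3a-/- livers were higher.

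Rsad2 and Cmpk2 lie next to each other on chromosome 12 with no coding gene between them, and their signals differed between genotypes in opposite directions, though neither passed the threshold. Rsad2 encodes viperin, an enzyme that makes a chain-terminating nucleotide, and Cmpk2 encodes a nucleotide kinase of mitochondria. The log2 signals of Rsad2 were -1.06 and -1.37 in the wild type livers and -0.73 and -0.63 in the Cyp3a-/- livers. Its difference was 0.53 ± 0.20 (SE; 1.45-fold; 95% interval 0.04 to 1.03; adjusted p = 0.470). Both Cyp3a-/- livers were thus higher for Rsad2, while for Cmpk2 both were lower. The brighter Cmpk2 probe measured -1.36 and -1.68 in wild type and -2.32 and -2.33 in Cyp3a-/- livers, a difference of -0.80 ± 0.19 (SE; 1.74-fold lower; 95% interval -1.29 to -0.32; adjusted p = 0.293). The second Cmpk2 probe measured -2.08 and -2.28 against -3.67 and -3.87, a difference of -1.59 ± 0.19 (SE; 3.01-fold lower). Both probes placed both Cyp3a-/- livers below both wild type livers, but they gave different sizes. Over the 21508 kept probes their adjusted p was 0.288 for the brighter and 0.063 for the other. With background corrected by normexp the difference of the brighter probe was -0.38, and with both probes averaged that of the gene was -1.20. Of the 8 members with 2 measured probes, 5 had estimates of the same sign from both. The second probes of Gbp6, Oas1a and Zbp1 gave 0.25, 0.13 and -0.33, opposite in sign to the first. That of Zbp1 was lower in both Cyp3a-/- livers, at -2.24 and -1.95 in wild type and -2.56 and -2.29 in Cyp3a-/- livers.

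**Figure D2:**
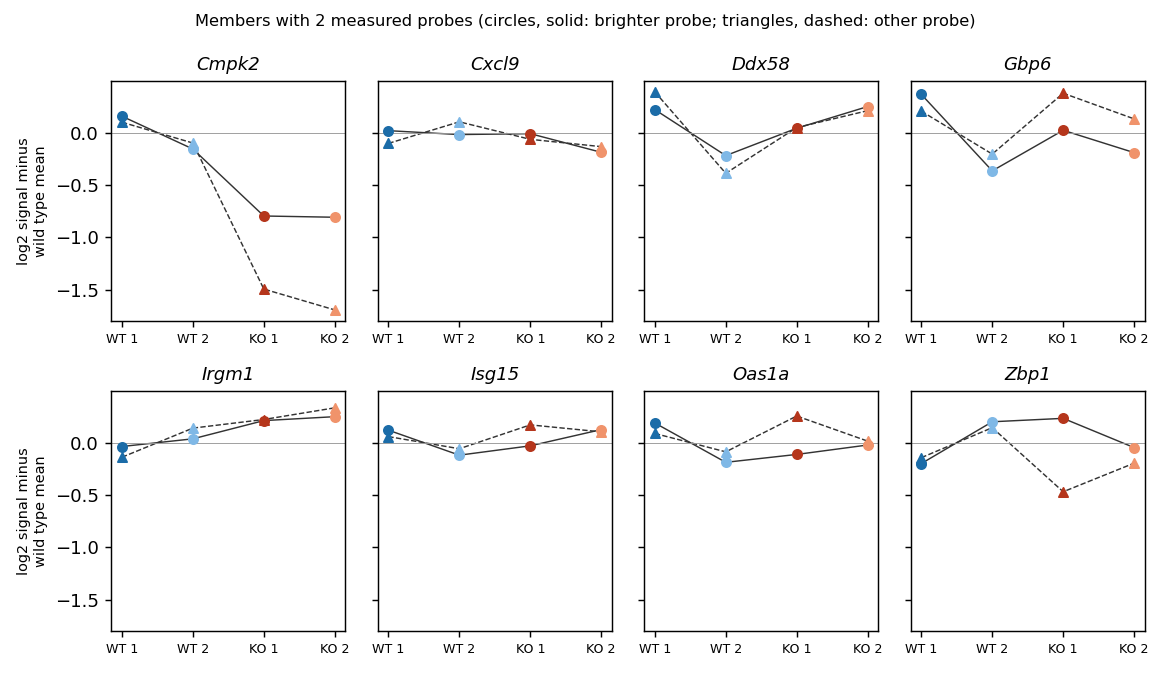
Log2 signal of each probe minus its own wild type mean (vertical axis) in wild type (WT) and Cyp3a-/- (KO) livers, for the 8 members with 2 measured probes. Both Cmpk2 probes are lower in both Cyp3a-/- livers (differences -0.80 and -1.59), while the probes of the other members stay within 0.5 log2 units of their wild type mean.

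The other tested antiviral effectors had differences between -0.09 and 0.24. Bst2, or tetherin, which holds budding virus at the cell surface, gave log2 signals of 5.22 and 5.15 in the wild type livers and of 5.04 and 5.15 in the Cyp3a-/- livers. The groups did not overlap, but by a gap smaller than the spread within either pair, and the difference was -0.09 ± 0.17 (SE; adjusted p = 0.878). Ifitm3, a membrane protein that blocks fusion of virus in endosomes, measured 5.27 and 5.08 against 4.96 and 5.36, a difference of -0.02 ± 0.22 (SE; adjusted p = 0.985) that was 0.01 with median scaling. The 2 Cyp3a-/- livers were the lowest and the highest of the 4. Parp14, an ADP-ribosyltransferase, had overlapping genotypes and a difference of 0.24.

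GTPases that act on vacuoles of intracellular microbes made up 5 members, and none passed. Irgm1, a regulator of this group, gave log2 signals of 2.11 and 2.19 in the wild type livers and of 2.36 and 2.40 in the Cyp3a-/- livers. Both pairs were tight and did not overlap, at a difference of 0.23 ± 0.17 (SE; 95% interval -0.20 to 0.66; adjusted p = 0.687). A second Irgm1 probe gave 0.28. Igtp, an IRG GTPase, measured 2.24 and 2.53 against 2.37 and 2.33, with both Cyp3a-/- livers inside the wild type range (difference -0.04 ± 0.19, SE; adjusted p = 0.963). The guanylate-binding proteins Gbp2, Gbp3 and Gbp6 had overlapping genotypes, with differences of 0.08, 0.06 and -0.08. The probes of Gbp6 may also detect the closely similar Gbp10.

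Cxcl9 and Cxcl10 encode chemokines that draw activated T cells. Cxcl10 had the widest spread of all 35 members, 1.00 log2 units over the 4 livers, with -1.14 and -0.70 in wild type and -0.14 and -0.73 in Cyp3a-/- livers. A single liver, Cyp3a-/- 1, was high, and Cyp3a-/- 2 lay inside the wild type range. The difference was 0.49 ± 0.28 (SE; 95% interval -0.21 to 1.19; adjusted p = 0.613). Cxcl9, induced mainly by interferon gamma, had a difference of -0.10 by each of its 2 probes.

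Psmb8 and Psmb9 are catalytic subunits of the immunoproteasome, which cuts peptides for presentation, and Tap1 is a subunit of the pump that carries them into the endoplasmic reticulum. The 3 genes adjoin on chromosome 17 in the order Psmb9, Tap1, Psmb8, and the promoter windows of Psmb9 and Tap1, on opposite strands, share 275 bases. All 3 had estimates below 0 and none passed, and that of Tap1 was above 0, at 0.03, with quantile normalization or median scaling. The log2 signals of Psmb8 were 2.06 and 1.96 in the wild type livers and 1.43 and 1.92 in the Cyp3a-/- livers. The genotypes did not overlap, yet the Cyp3a-/- livers differed by 0.49, more than the genotypes did (-0.33 ± 0.23, SE; adjusted p = 0.662). The differences of Psmb9 and Tap1 were -0.16 and 0.00.

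Rtp4, a chaperone of membrane receptors that interferon induces, measured 2.01 and 1.81 in wild type and 2.19 and 1.90 in Cyp3a-/- livers, a difference of 0.13 ± 0.20 (SE; adjusted p = 0.851). Its genotypes overlapped, as did those of Ifi35 (-0.13) and Xaf1 (0.10). Ifi44 was higher in both Cyp3a-/- livers, by 0.22. In all, 17 tested members lay outside both the 10 with the smallest unadjusted p and the 10 with the highest mean signal, and their differences ran from -0.18 to 0.24 (adjusted p from 0.701 to 0.996).

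Read by order alone, both Cyp3a-/- livers lay above both wild type livers for 7 of the 35 members, against 22.7% of all features, and below both for 4, against 20.2%. The 7 were Rsad2, Irf7, Ifih1, Ifit1, Oasl1, Irgm1 and Ifi44, and the 4 were Cmpk2, Oas2, Psmb8 and Bst2. Together these 11 were 31.4% of the members, below the 42.9% of all features. The difference between the wild type livers was wider than that between the genotypes for 20 members (57.1%), against 48.7% of all features. In the Cyp3a-/- pair this held for 20 members as well, against 57.1% of all features. Only 1 member spanned more than 1 log2 unit over the 4 livers (2.86%, Cxcl10), against 15.1% of all features.

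The livers of one genotype were not alike for these genes. Wild type 1 was above wild type 2 for 29 of the 35 members (82.9%), against 53.1% of all features, and the median gap was 0.23, against 0.02. Wild type 1 was the highest of the 4 livers for 16 members and wild type 2 for 1, while wild type 2 was the lowest for 17. Wild type 2 thus stood lowest in median deviation from the members' own means (-0.14), with Cyp3a-/- 1 at 0.00, Cyp3a-/- 2 at 0.08 and wild type 1 at 0.10, so the genotypes overlapped. With median scaling, 24 of 35 members were higher in wild type 1, against 41.1% of all features. Marker levels also differed within this pair: 41 of 58 measured markers were higher in wild type 1. So was the summed level of 7 of the 9 marker lists. Kupffer cell markers (65.8 and 66.7) and cholangiocyte markers (0.83 and 1.45) summed higher in wild type 2. A sum follows its brightest genes: 7 of the 11 Kupffer cell markers were higher in wild type 1, while Marco measured log2 2.00 and 2.82. Hepatocyte markers summed higher in wild type 1 (2787 and 2498), though only 3 of the 8 were higher there. The sum of the 7 measured T and NK cell markers was 17.0 in wild type 1 and 10.8 in wild type 2, of which Cd4 made up 12.6 and 7.39, and 5 of the 7 were higher in wild type 1. That of 6 sinusoidal endothelium markers was 37.4 and 28.5. Their part in the gap between the wild type livers was not tested.

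**Figure D3:**
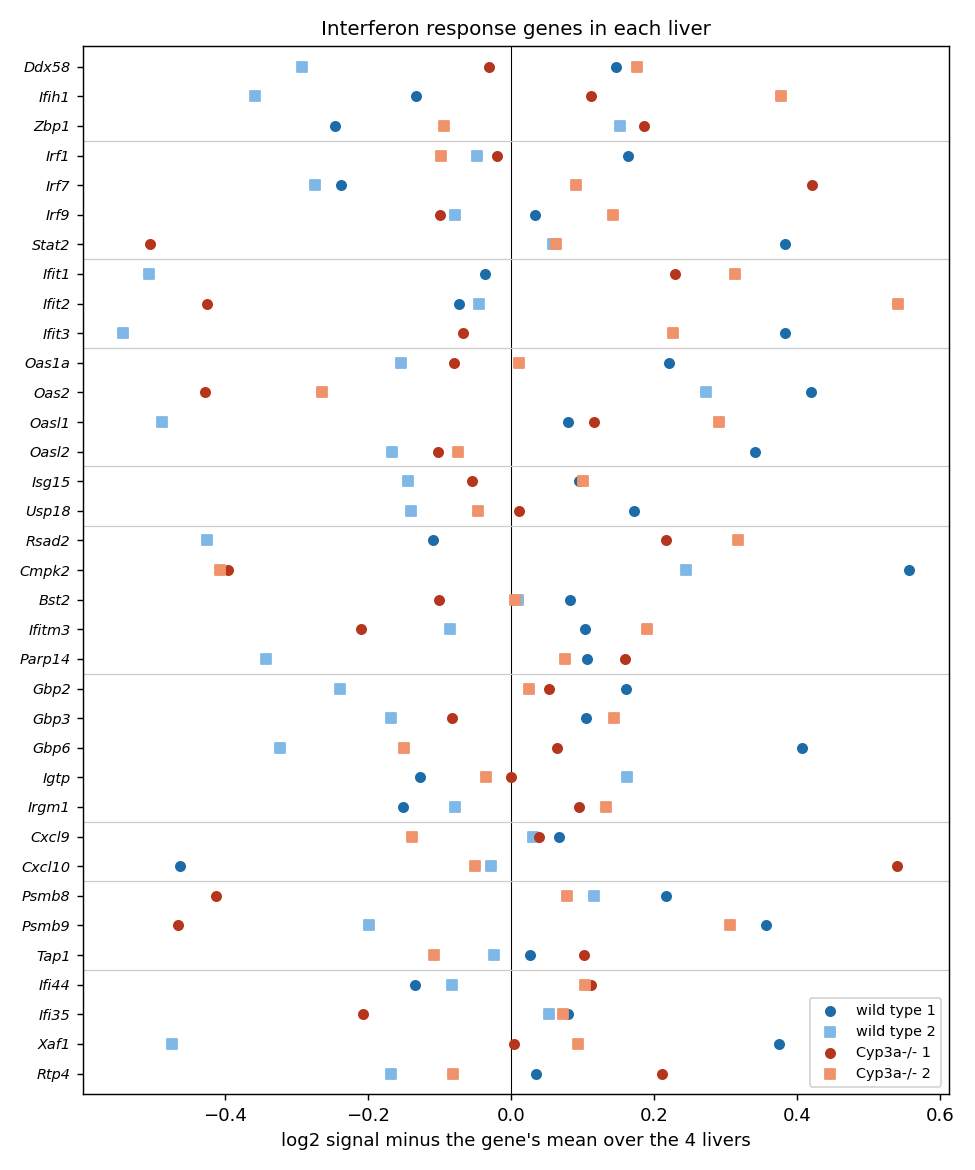
Log2 signal of each tested interferon response gene in each liver, minus the gene's mean over the 4 livers (horizontal axis), grouped by role. Each row holds 4 points, 1 per liver; wild type 2 (light blue squares) is lowest for 17 of the 35 genes and wild type 1 (dark blue circles) highest for 16.

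By position, 8 members lie on chromosome 5, which also carries the Cyp3a cluster. The 7 of them that were tested had a median difference of -0.08 (range -0.69 to 0.49), and 2 were above 0. The 28 tested members on other chromosomes had a median of 0.07 (range -0.80 to 0.54), and 17 were above 0. By promoter, the 15 tested members with an ISRE core in their window had a median of 0.08 (range -0.44 to 0.54) and the 14 without one a median of -0.05 (range -0.80 to 0.51). The ranges overlapped in both comparisons.

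The rest of the pathway held 109 listed genes, of which 85 were tested: 0 were higher (0.177% of all features were) and 1 was lower. An unadjusted limma p under 0.05 was found for 2 of them with higher signal (2.35%), against 4.60% of all features. It was found for 3 with lower signal (3.53%), against 5.40% of all features. Ifna2, 1 of the 2 higher ones, is in this count only through the filter described below. The gene that fell was Ifitm7, of the same membrane protein family as Ifitm3. Its log2 signals were 1.40 and 1.51 in the wild type livers and -0.91 and -0.96 in the Cyp3a-/- livers, so each pair was tight and the pairs were far apart. It fell by 2.39 ± 0.17 (SE; 5.24-fold lower; adjusted p = 0.015), against 0.0969% of all features called lower. Without wild type 1 or wild type 2 the difference was -2.45 or -2.33, as large as with all livers, but it was no longer called (adjusted p = 0.219 and 0.325). The other 4 tested genes of the Ifitm list, Ifitm3 among them, lay between -0.30 and 0.03.

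Of 10 interferon ligand genes 3 were tested and 0 called, and Ifna2 was the one with the smallest p. Its log2 signals were -5.25 and -5.10 in the wild type livers, where it was not well above background, and -3.75 and -4.44 in the Cyp3a-/- livers. It was tested only because it was well above background in the Cyp3a-/- livers, so its direction was set by that filter, and neither a fold nor a p is read from it. Ifna1, at -3.97 and -4.92 against -3.75 and -3.81, was well above background in 1 wild type liver and both Cyp3a-/- livers. It thus also passed the filter only through the Cyp3a-/- livers. Ifna genes are close copies, so each of these probes may detect several of them. Receptors and their kinases had 0 of 9 called and a median of -0.15; the smallest p belonged to Ifngr2, a chain of the interferon gamma receptor, at 1.19 and 1.41 against 0.83 and 1.15 (difference -0.31, adjusted p = 0.658). The feedback regulators had 0 of 8 called and a median of -0.05, with Pias1, a SUMO ligase that restrains cytokine signalling, at 0.99 and 0.85 against 0.34 and 0.64 (difference -0.43, adjusted p = 0.557).

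The machinery that induces interferon had 0 of 13 genes called and a median of -0.25. Irf5, a transcription factor downstream of endosomal receptors, gave log2 signals of 0.59 and 0.37 in the wild type livers and of -0.54 and -0.16 in the Cyp3a-/- livers. Both Cyp3a-/- livers were lower, at a difference of -0.83 ± 0.22 (SE; adjusted p = 0.321). Irf5, Ticam1 and Tlr9, the last 2 named after their values were seen, were the 3 of 13 genes with an unadjusted limma p under 0.05. Irf5 and Ticam1 (-0.52) were lower, against 5.40% of all features. Tlr9 was higher, at 4.04 and 3.85 in wild type and 4.51 and 4.33 in Cyp3a-/- livers (difference 0.48), against 4.60% of all features. Among 35 tested genes of a further list of induced genes none was called and the median was -0.01; Helz2, a helicase, measured 4.22 and 4.27 against 3.51 and 3.93 (-0.52 ± 0.21, SE; adjusted p = 0.509). Of 14 tested MHC presentation genes none was called and the median was 0.08, with B2m, the light chain of MHC class I, at 7.03 and 6.98 against 7.42 and 7.28 (difference 0.34, adjusted p = 0.584).

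**Figure D4:**
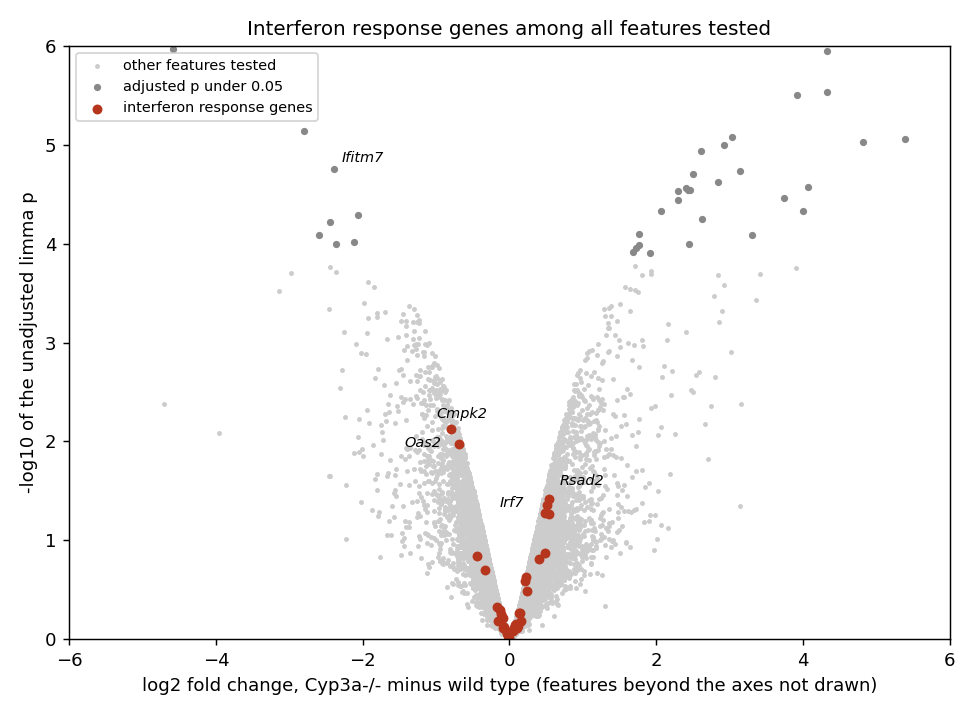
Log2 difference between Cyp3a-/- and wild type livers (horizontal axis) against minus log10 of the unadjusted limma p (vertical axis) for all 17552 features; 12 features beyond the axes are not drawn. The 35 interferon response genes (red) lie between -0.80 and 0.54, away from the 48 features with an adjusted p under 0.05 (dark grey), of which Ifitm7 is labelled.

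Immune cell markers were measured beside these genes, and 0 of them passed the threshold in any list. The summed level of 11 Kupffer cell and macrophage markers was 65.8 and 66.7 in the wild type livers and 53.9 and 59.5 in the Cyp3a-/- livers. That of 5 of 6 B and plasma cell markers was 1.02 and 0.74 against 0.48 and 0.69, and both sums were lower in both Cyp3a-/- livers. Of the Kupffer cell and macrophage markers 9 had differences below 0 and 2 above. Marco was lowest at -1.47 ± 0.30 (SE; adjusted p = 0.246), and Vsig4 was higher in both Cyp3a-/- livers, by 0.16. T and NK cell markers, 7 of 11, summed to 17.0 and 10.8 against 18.0 and 14.5, with overlapping genotypes. Their differences were above 0 for 4 and below 0 for 3. The sums of 7 of 8 dendritic cell markers, Bst2 among them, ranged from 68.5 to 82.5. Those of 4 of 8 monocyte and neutrophil markers ranged from 38.9 to 52.2. Genotypes overlapped in both sums, which rest mostly on a few bright genes. Siglech made up 43.7 and 37.5 of the dendritic sum in the wild type livers (81.6 and 73.5). Csf3r made up 42.1 and 40.9 of the other (46.5 and 43.8). Singly, Bst2, Clec9a and Ccr7, 3 of the 7 dendritic markers, were lower in both Cyp3a-/- livers and 0 higher, against 20.2% and 22.7% of all features. Cd79a, Xcr1, Cd8a, Cd8b1, Ncr1, Klrb1c, Ccr2 and Retnlg were not measured above background in both livers of either genotype. The part of these cells in the differences of the members was not tested.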

How the data were processed

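The deposited scanner output of each array came from Agilent Feature Extraction 11.5.1.1, as the submitters' processing notes state. Its processed intensity, per the file headers, is background-subtracted by that software, with no scaling of one array to another. The same deposited files hold median intensity of spot and local background and flags, and a deposited table holds log2 values of the same arrays. Set against the scanner values (r = 1.00 for each array after centring), that table behaved as scaled log2 values centred on each probe's median (0 for 39417 probes, tolerance 0.002); its scale, centring and direction were inferred from this. Its column medians were 0.06 and -0.07 (wild type) and -0.02 and 0.02 (Cyp3a-/-), and 0 per-sample columns were left unused.

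Control spots and 113 to 148 outlier spots per array were left out. Processed intensity was divided by the array's 75th percentile (308 to 352) over 39429 probes and taken to log2. Probes were named by unversioned RefSeq accession (GRCm38.p6 table): 28025 had 1 symbol, 0 several and 11404 none. The 21508 probes well above background on both arrays of a genotype were kept, and the brightest kept probe by mean signal stood for its gene, giving 17552 features, a probe without a symbol counting as its own. limma 3.58.1 in R 4.3.3 (lmFit, eBayes, 2-sided; prior degrees of freedom 3.52, residual 2) compared the genotypes, with p-values adjusted by Benjamini-Hochberg over the whole table and called under 0.05.

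Members, pathway lists and marker lists were chosen with earlier results of these data known, so no list was tested. Values per liver are given for members past the threshold, the 10 with the smallest p and the 10 with the highest mean signal, and in each pathway list for called genes or else the smallest p. Alternatives covered background correction, normalization, filters, probes, the deposited table, blocks and leaving out each liver. Same-numbered livers deviated from their group means with a correlation of -0.10, and the labels do not tie the numbers to a shared day or litter.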

Additional observations from a re-analysis of the deposited data

How the results depend on the processing

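With 2 livers per genotype these values bound the size of a difference for 26 of 35 members to under 2-fold and leave it unbounded at that size for the rest, and signal near background limits Oas3 and the ligands. Of the 13 alternatives set at the start, those that kept all 4 livers put 0 members past the threshold, as did the crossed block. The smallest limma adjusted p was 0.142, with both Cmpk2 probes averaged. In these fits 2 to 6 members had an unadjusted p under 0.05. It was 6 (17.1%) with probes well above background on all 4 arrays, against 9.12% of all features, and with the crossed block, against 11.7%. Where it was 2 (5.56% or 5.71%), the share of all features was 6.15% to 10.7%. Over all features the count of 48 became 665 with median scaling (limma's prior degrees of freedom were then infinite), 13 with no filter on dim probes, 9 with probes well above background on all 4 arrays, and 7 to 527 on leaving out 1 liver. Other pathway genes past the threshold numbered 2 with median scaling (Ifitm7 and Ifna2), 0 with no filter (Ifitm7, adjusted p = 0.120) and 0 to 3 on leaving out 1 liver; without Cyp3a-/- 2 they were Ifitm7, Tlr7 and Ifna2. Ifna2 passed the filter only through the Cyp3a-/- livers. For these shifts the cause was not tested. The members with genotypes that do not overlap numbered 11 to 13 under the other alternatives (30.6% to 37.1%, against 33% to 42.9% of all features) and 20 to 26 with 1 liver left out (57.1% to 74.3%, against 68.1% to 77.3%), where fewer livers are ordered. The members' median log2 difference ran from -0.07 to 0.12 on leaving out 1 liver and from 0.01 to 0.08 otherwise.

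With the replicate number as a block, 0 members, 1 other pathway gene and 58 features passed; livers share only a number, and the block changed no call of a member. The crossed pairing, added after the data were seen, gave 0, 1 and 53. As a random block, slide (correlation 0.36, formed from the medians of squared differences within and between slides because limma gave no estimate here) left 32 features. The difference within a slide came from the wild type pair and that between slides from the Cyp3a-/- pair. This correlation thus mixes slide with genotype, and the block cannot separate them.

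Of 455 values of members under these 13 alternatives, 422 kept their sign and their side of the threshold and 33 changed sign. The 19 members concerned had main differences no larger than 0.18 in size. With all kept probes of a gene averaged, Gbp6 was 0.085, Oas1a 0.034 and Zbp1 -0.12. With median scaling Ifitm3 was 0.012 and Tap1 0.027, and with quantile normalization Tap1 was 0.032. On leaving out 1 liver the difference ran from -0.074 to 0.36 for Ddx58, -0.12 to 0.28 for Gbp2, -0.073 to 0.20 for Gbp3, -0.45 to 0.28 for Gbp6, -0.27 to 0.0063 for Ifi35, -0.37 to 0.60 for Ifit2, -0.30 to 0.62 for Ifit3, -0.22 to 0.18 for Ifitm3 and -0.18 to 0.11 for Igtp. It ran from -0.078 to 0.16 for Irf9, -0.072 to 0.17 for Isg15, -0.25 to 0.12 for Oas1a, -0.43 to 0.079 for Oasl2, -0.55 to 0.23 for Psmb9, -0.015 to 0.28 for Rtp4, -0.11 to 0.10 for Tap1, -0.19 to 0.12 for Usp18, -0.33 to 0.52 for Xaf1 and -0.11 to 0.29 for Zbp1.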
